A study of Oryza sativa with 12 samples.

Results

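The main effect of the Prl5 segment was measured over 12 RNA-seq libraries made from young rice panicles 2 mm long, of which 6 carried the segment and 6 did not. The 6 libraries with it were 3 of NIL-Prl5ST-1 and 3 of NIL-Prl5ST-1+Pbl6ST-1. The 6 libraries without it were 3 of Koshihikari, labelled WT, and 3 of NIL-Pbl6ST-1, so every library of the series (12 of 12) entered the comparison. The effect is that of a model in which the Prl5 and the Pbl6 segment each shift the log2 level of a transcript by a fixed amount (an additive model), so that differences due to the Pbl6 segment were taken out before the 6 were set against the 6. Koshihikari is a japonica cultivar, and the NILs (near-isogenic lines) are Koshihikari plants into which chromosome segments of the line ST-1 were moved by repeated backcrossing. All lines were grown in a paddy field. Each genotype is a single line, and a segment brings the ST-1 alleles of all genes on it, so the effect of Prl5 itself and that of genes linked to it cannot be told apart. No label says whether the libraries of a line came from separate plants. The paper states for all its experiments at least 3 biological replicates, without describing those of the RNA-seq. The p-values therefore measure the spread between libraries, which may be technical.

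Prl5 encodes GA20ox4, a gibberellin 20-oxidase. Enzymes of this family carry out the late oxidation steps that make the precursors of active gibberellins, the hormones known for stem and rachis elongation. Pbl6 is APO1, an F-box protein that keeps the inflorescence meristem active and sets the number of primary branches. In a panicle of this size the branches have formed and spikelets begin to lay down floral organs, where MADS-box and YABBY transcription factors act.

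Total counts per library lay between 16041196 (NIL-Pbl6ST-1 replicate 3) and 31760529 (NIL-Prl5ST-1 replicate 3), and 3 counts, taken as the floor of detection, were worth 0.0971 to 0.192 cpm (counts scaled to the size of the library and not corrected for transcript length, so levels are not compared between genes). On principal component PC3 of log2 cpm, which held 10.2% of the variance, the 6 libraries without the segment lay between 2.7 and 18.04 and the 6 with it between -17.32 and -4.23. PC1 held 49.7%, and on it Koshihikari replicate 2 stood apart from its line at 19.06 against -9.41 and -6.14. NIL-Prl5ST-1 replicate 2 likewise stood apart at 15.91 against 42.96 and 46.52. On PC2, with 20.9%, NIL-Prl5ST-1+Pbl6ST-1 replicate 3 lay at -18.72 against 3.85 and 6.93, and Koshihikari replicate 2 at -1.15 against -21.92 and -30.49. Of the marker lists, 8 transcripts of young panicle and meristem genes summed to 296 to 440 cpm (median 405) with the segment and 363 to 508 cpm (median 443) without it. The 24 leaf transcripts summed to 86.0 to 133 cpm (median 105) with it and 73.6 to 129 cpm (median 76.9) without it. For 3 transcripts of later floral organs the sums were 14.1 to 16.7 and 11.8 to 15.2 cpm, and for 19 of tapetum and pollen, 8 of which had at most 3 counts in every library, they were 37.8 to 52.7 and 40.4 to 54.5 cpm. The sums of the 2 groups overlapped for each list and no marker transcript was called. No young panicle transcript was limited to 3 counts or fewer in every library.

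**Figure D1:**
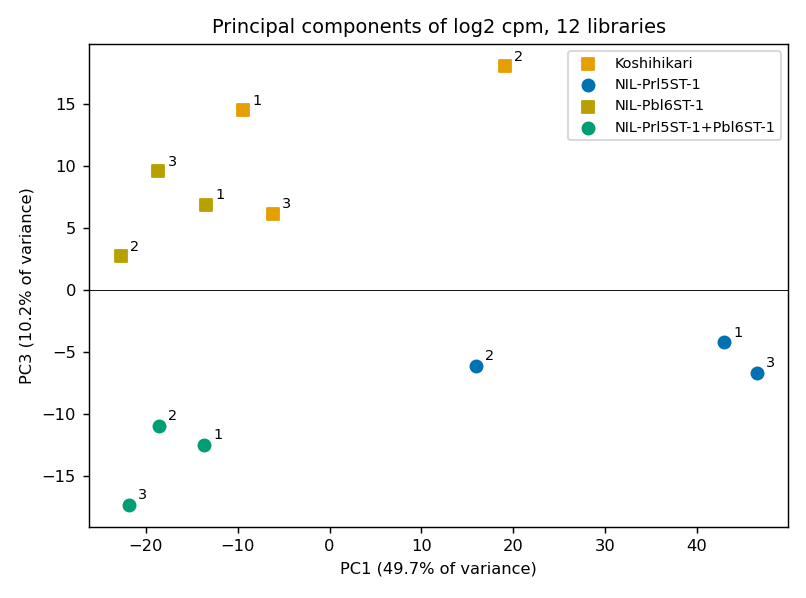
PC1 (x axis) and PC3 (y axis), principal components of log2 cpm in component units, for the 12 libraries, coloured by line, with round points for lines that carry the Prl5 segment, square points for lines that do not, and replicate numbers beside the points. The 6 libraries with the segment lie below 0 on PC3 (-17.32 to -4.23) and the 6 without it lie above 0 (2.7 to 18.04), while replicate 2 of Koshihikari and of NIL-Prl5ST-1 lie away from their lines on PC1.

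The transcript of Prl5, Os05t0421900-00 on chromosome 5, did not pass the test. It was at 2.49, 2.73 and 2.19 cpm in Koshihikari and at 3.0, 2.86 and 2.72 cpm in NIL-Prl5ST-1. In NIL-Pbl6ST-1 it was at 3.64, 3.52 and 2.69 cpm, and with both segments at 4.78, 3.97 and 2.92 cpm. The libraries with and without the segment overlapped, with 2 of the NIL-Pbl6ST-1 libraries above all of NIL-Prl5ST-1. The log2 fold change was 0.22 (standard error 0.135, adjusted p = 0.582 by edgeR), and 0.21 in the Koshihikari and 0.23 in the NIL-Pbl6ST-1 background. An exact permutation test within backgrounds, two-sided, gave p = 0.13, where the smallest p of the 400 arrangements is 0.005. Pbl6 (Os06t0665400-01 on chromosome 6) ranged from 0.89 to 1.84 cpm with the Prl5 segment and from 1.07 to 2.23 cpm without it, with a log2 fold change of -0.10 (standard error 0.202, adjusted p = 0.896, exact permutation p = 0.68).

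None of 37 gibberellin transcripts passed edgeR's adjusted threshold, which 0.616% of all transcripts passed, nor any by DESeq2 or limma-voom (0 and 0). At an unadjusted P under 0.05, 4 were higher and 4 lower, beside 1793 higher and 1630 lower of all 31643 transcripts. Of the fitted log2 fold changes 19 were above 0 and 18 below, with a median of 0.002 beside -0.004 over all transcripts tested. GA20ox2 (Os01t0883800-02), another 20-oxidase, was at 1.16 to 1.77 cpm with the segment and 0.481 to 1.54 cpm without it (log2 fold change 0.39, adjusted p = 0.526), and GA20ox1 (Os03t0856700-01) at 18.6 to 35.1 and 18.7 to 46.9 cpm (-0.19, adjusted p = 0.492). For the 2-oxidases, which inactivate gibberellins, the GA 2-oxidase 4-like Os01t0757200-01 was at 10.9 to 15.8 cpm with the segment and 10.6 to 14.3 cpm without it (0.01, adjusted p = 0.988). OsGAI (Os03t0707600-01), the DELLA repressor of the pathway, was at 117 to 160 and 134 to 158 cpm (-0.09, adjusted p = 0.711). The groups overlapped in each of these 4.

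Genes of panicle architecture were likewise without a call. None of 21 transcripts passed by edgeR, DESeq2 or limma-voom (0, 0 and 0), beside 0.616% of all transcripts called by edgeR. At an unadjusted P under 0.05, 5 were lower and 0 higher, beside 1630 and 1793 of all 31643. The median log2 fold change was -0.013. The bHLH factor of axillary meristems (Os01t0831000-01, LAX1) was at 25.3 to 37.7 cpm with the segment and 25.3 to 51.4 cpm without it (-0.37, adjusted p = 0.359). OSH15 (Os07t0129700-01), a KNOX homeobox gene of the meristem, was at 80.3 to 154 and 121 to 169 cpm (-0.25, adjusted p = 0.295). The FLORICAULA/LEAFY-like Os04t0598300-00, known as APO2, the partner of APO1, was at 92.7 to 146 and 117 to 174 cpm (-0.21, adjusted p = 0.372). A squamosa promoter-binding-like factor that regulates branching (Os08t0509600-01) was at 86.2 to 245 and 94.4 to 195 cpm (0.34, adjusted p = 0.495).

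Over all transcripts, 195 of 31643 (0.616%) from 162 loci differed with the Prl5 segment at an adjusted p below 0.05. Of these 106 (0.335%) were higher and 89 (0.281%) lower with the segment. At an unadjusted P under 0.05, 1793 transcripts were higher and 1630 lower. Chromosome 5 held 108 of the 195 calls at an adjusted p below 0.05, from 95 loci, that is 55.4% of them beside 8.29% of the transcripts tested. The other chromosomes held 87, from 67 loci. By chromosome, 4.12% of the transcripts of chromosome 5 were called, and between 0.117% (chromosome 12) and 0.62% (chromosome 11) of those of the others. Chromosome 6, which carries Pbl6, had 6 calls among 2556 transcripts (0.235%). The direction also differed between the places, with 46 higher and 62 lower on chromosome 5 and 60 higher and 27 lower elsewhere. The median size of the fitted log2 change was 1.03 on chromosome 5 and 0.62 elsewhere, where 8 transcripts found in Koshihikari alone, described at the end, were set aside.

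The 6 libraries with the segment and the 6 without did not overlap in 221 of all transcripts tested (0.698%), of which 109 were called, 86 on chromosome 5 and 23 elsewhere. Within both backgrounds the 3 libraries with the segment lay on the same side of the 3 without it in 642 transcripts (2.03%), of which 171 were called, 103 on chromosome 5 and 68 elsewhere. When each of the 12 libraries was left out in turn, 112 of the calls were made in all 12 fits, 72 on chromosome 5 and 40 elsewhere. The 40 came from 30 loci, and 7 of them were among the transcripts found in Koshihikari alone. The number called elsewhere fell from 87 to 51 without Koshihikari replicate 1, to 50 without NIL-Prl5ST-1 replicate 1, to 47 without NIL-Prl5ST-1 replicate 3 and to 55 without replicate 1 of NIL-Prl5ST-1+Pbl6ST-1. The number called higher fell from 106 to between 61 and 69 without any of these 4, without NIL-Pbl6ST-1 replicate 3 or without replicate 2 of NIL-Prl5ST-1+Pbl6ST-1. DESeq2 called 467 transcripts, and the average of the effects in each background called 440, while leaving the Pbl6 covariate out left 74, of which 62 lay on chromosome 5.

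The calls on chromosome 5 were gathered around Prl5. Between Os05g0389000 and Os05g0509500, a stretch bounded after the calls were seen, 101 of 717 transcripts (14.1%) were called, against 7 of 1905 (0.367%) on the rest of the chromosome. Within it 40 were higher and 61 lower, 42 came before Prl5 in locus order and 59 after it, and 84 showed no overlap between the 6 and the 6. The other 616 transcripts of the stretch were not called. In windows of 100 transcripts in locus order, 20 and 22 were called in the last 2 windows before Prl5, and 23, 17, 2, 7 and 9 in the 5 windows from Prl5 onwards. The next window on either side held 0 and 1. Over all transcripts tested on chromosome 5 the sign of the effect was the same in both backgrounds for 45.3%. It was the same for 100 of the 101, as the additive model selects them, and 48 were also called in each background alone. The exception was Os05t0501001-01, at 3.88 to 6.95 cpm in NIL-Pbl6ST-1 and at or near 0 in the other lines except for 1.56 cpm in replicate 1 of NIL-Prl5ST-1+Pbl6ST-1.

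**Figure D2:**
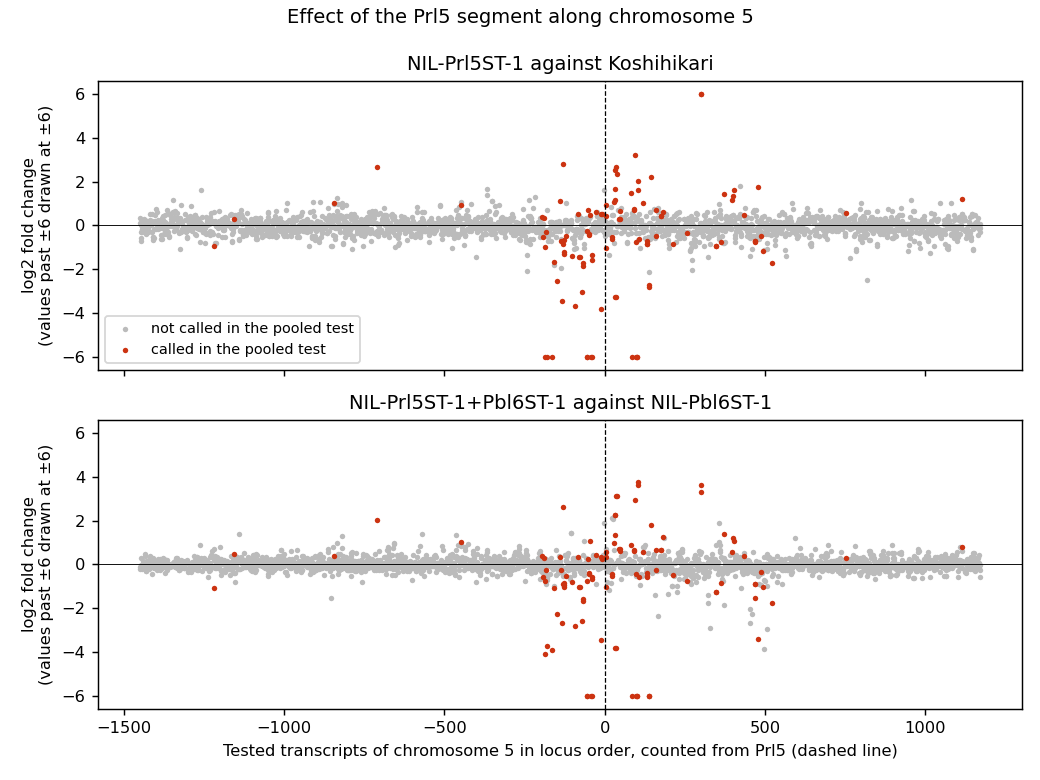
Log2 fold change for the Prl5 segment (y axis, values past 6 in either direction drawn at 6) of the transcripts tested on chromosome 5, in locus order and counted from Prl5 (x axis, dashed line at Prl5), in the Koshihikari background (upper panel) and in the NIL-Pbl6ST-1 background (lower panel). Red points, the 108 transcripts called in the comparison of 6 with 6, crowd around Prl5 in both panels and point both up and down, with grey points (not called) between them.

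Of the 15 transcripts tested on each side of Prl5, 3 in a row were called on each side, and the 8 nearest before and the 3 nearest after it were not. Before Prl5, the GDSL lipase Os05t0419800-01 was higher with the segment at 900 to 1090 cpm against 699 to 836 cpm (log2 fold change 0.42, adjusted p = 0.016). The hypothetical protein Os05t0420000-01 was lower at 0.791 to 1.31 cpm against 9.92 to 16.7 cpm (-3.67, adjusted p = 4.11e-10). Between these and Prl5 the armadillo-type protein Os05t0421300-01 was at 60.8 to 85.7 cpm with the segment and 64.9 to 86.8 cpm without it (-0.13, adjusted p = 0.589), and did not pass. After Prl5, the PISTILLATA-like MADS gene Os05t0423400-01 was higher and the protein kinase Os05t0423500-01 was lower, at 2.22 to 3.51 cpm against 5.2 to 6.95 cpm (-1.03, adjusted p = 0.000279). The NAM-domain transcript Os05t0421600-01, the nearest tested before Prl5, was at 0.198 to 0.624 cpm with the segment and 0 to 0.336 cpm without it (1.74, adjusted p = 0.245).

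The largest falls on chromosome 5 were from a clear level to at or near the floor. The hypothetical protein Os05t0439200-01 had 34.4 to 56.2 cpm (median 39.7) without the segment and no count in any of the 6 libraries with it, at least 322-fold lower against a floor of 3 counts per library (adjusted p = 5.36e-09). The DUF659-domain transcript Os05t0414400-02 had 5.56 to 14.7 cpm without it and no count with it, at least 70.7-fold lower (adjusted p = 1.13e-07). The neighbours Os05t0412300-01, which carries an HMG-I and HMG-Y domain that binds AT-rich DNA, and Os05t0412400-01, a conserved hypothetical protein, fell together. The first was at 24.0 to 33.0 cpm without the segment and 0 to 0.129 cpm with it (-8.77, standard error 0.248, adjusted p = 5.34e-12), the second at 27.0 to 39.5 and 0 to 0.109 cpm (adjusted p = 3.81e-12). Os05t0441500-01, a conserved hypothetical protein, was at 1.67 to 6.57 cpm without it and had a single read, worth 0.0354 cpm, in the 6 libraries with it (adjusted p = 7.71e-10). A loss of RNA and reads of the ST-1 allele that do not match the reference cannot be told apart.

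The hypothetical protein Os05t0390932-01 was at 16.2, 33.3 and 22.5 cpm in Koshihikari and at 20.5, 16.3 and 18.3 cpm in NIL-Pbl6ST-1. It had no count in NIL-Prl5ST-1, and with both segments it was at 0, 2.34 and 1.58 cpm, so that all 6 lay below all 6 (adjusted p = 0.000279). The hypothetical protein Os05t0429100-01 fell but stayed well above the floor. It was at 77.8 to 110 cpm (median 93.4) without the segment and 6.28 to 9.29 cpm (median 8.18) with it (-3.54, standard error 0.108, adjusted p = 8.44e-12).

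Enzymes and transporters of known kind also fell on chromosome 5. A 1-deoxy-D-xylulose-5-phosphate synthase-like transcript (Os05t0408900-01), whose enzyme opens the plastid route to isoprenoids and also feeds thiamine synthesis, was at 14.0, 16.5 and 14.5 cpm in Koshihikari and 6.39, 5.91 and 4.27 cpm in NIL-Prl5ST-1. In NIL-Pbl6ST-1 it was at 23.3, 23.9 and 18.1 cpm and with both segments at 10.1, 10.7 and 11 cpm (-1.24, standard error 0.115, adjusted p = 2.31e-05). Each group of 3 with the segment was below its own background, and the 6 did not overlap the 6. The auxin transporter-like protein 1 (Os05t0447200-01), of the family that carries auxin into cells, was at 5.24 to 8.2 cpm with the segment and 9.26 to 13 cpm without it (-0.73, adjusted p = 0.00115). An auxin efflux carrier (Os05t0481900-01), of the family that carries it out, was at 1.43 to 2.86 and 2.97 to 4.81 cpm (-1.09, adjusted p = 0.00381). Of 159 transcripts in the auxin list 3 were called, all lower, beside 0.281% called lower of all transcripts. The 3 were transcripts of these 2 loci and so lay in the stretch around Prl5. Beta-tubulin (Os05t0413200-01), a subunit of microtubules, was at 62.8 to 93.7 cpm with the segment and 89.7 to 135 cpm without it (-0.46, adjusted p = 0.0107), the cytochrome P450 CYP721B4-like Os05t0405500-01 at 1.17 to 1.92 and 2.69 to 4.12 cpm (-1.11, adjusted p = 0.00151).

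The largest rise on chromosome 5 was that of the non-coding transcript Os05t0475550-00, at 1.42 to 4.81 cpm with the segment. Without it there was no count in 5 libraries and 0.548 cpm in NIL-Pbl6ST-1 replicate 2 (adjusted p = 0.00136). A chitinase-like transcript (Os05t0399300-01), of a family that cleaves chitin, was at 4.79 to 7.21 cpm with the segment and 0.393 to 1.34 cpm without it (2.71, standard error 0.186, adjusted p = 5.16e-07). The potassium channel ZMK2-like Os05t0428700-01 was at 11.1 to 22.4 cpm with it and 3.52 to 4.94 cpm without it (1.96, standard error 0.144, adjusted p = 1.19e-06). The hydroxymethyltransferase-like Os05t0429000-01 was at 14.8 to 16.4 and 5.8 to 7.56 cpm (1.26, adjusted p = 4.48e-07), and the actin 1-like Os05t0438800-01, a cytoskeletal protein, at 5.52 to 8.83 and 1.87 to 3.74 cpm (1.18, adjusted p = 0.00177). The conserved hypothetical protein Os05t0488100-01 was at 1.2 to 3.66 cpm with it and 0.397 to 1.1 cpm without it (1.42, adjusted p = 0.00428). In each of these 6 the lowest library with the segment was above the highest without it, and each was called in every fit that left out a library.

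**Figure D3:**
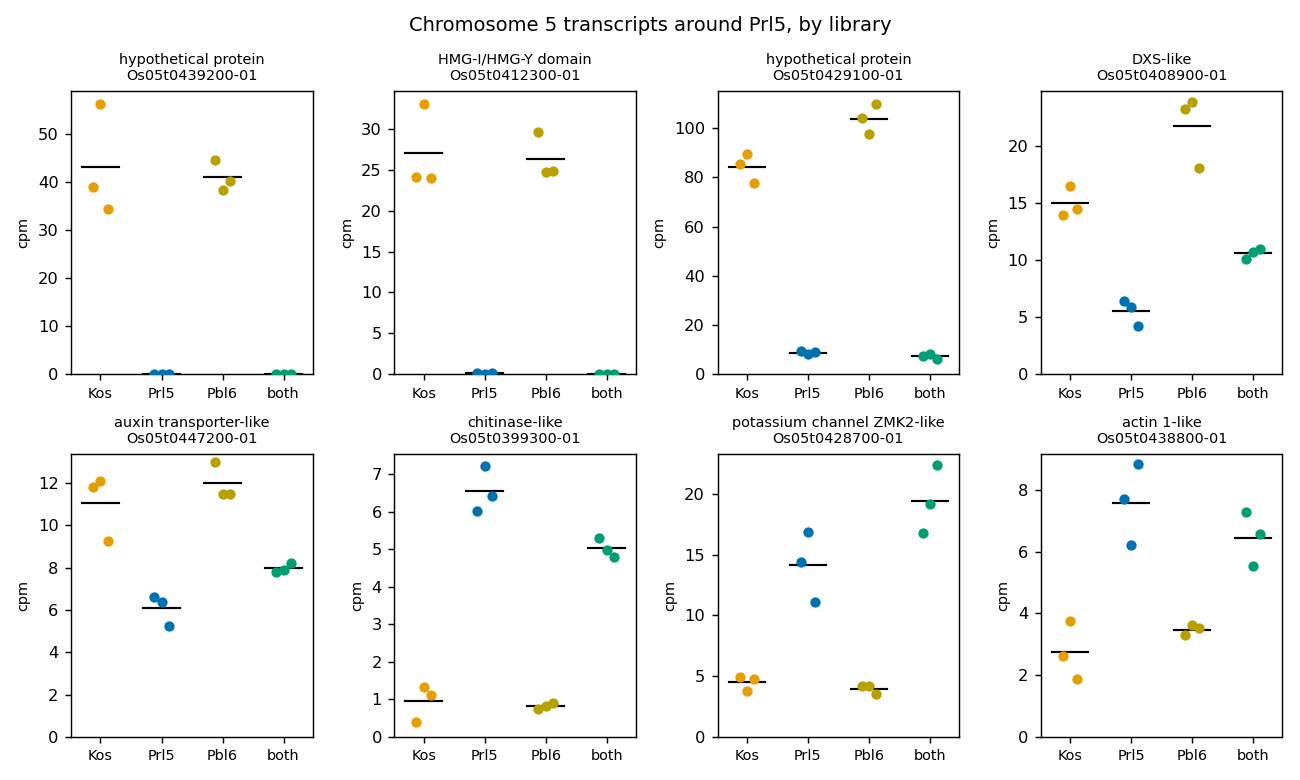
Normalised counts (cpm, y axis) of 8 chromosome 5 transcripts in each library of Koshihikari (Kos), NIL-Prl5ST-1 (Prl5), NIL-Pbl6ST-1 (Pbl6) and NIL-Prl5ST-1+Pbl6ST-1 (both), with points for libraries and bars for the mean of 3. The first 5 panels show transcripts that are lower in both lines with the segment (Os05t0439200-01 at 0 in all 6 of their libraries) and the last 3 show transcripts that are higher in both (Os05t0399300-01 at 4.79 to 7.21 cpm against 0.393 to 1.34 cpm).

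Among the transcripts called outside chromosome 5, the largest rise was that of OsYAB1, a YABBY transcription factor gene of lateral and floral organs on chromosome 7. Its transcript Os07t0160100-02, the one of its locus with the highest mean count, was at 13.8, 12.8 and 24.3 cpm in Koshihikari and at 66.1, 41.8 and 69.6 cpm in NIL-Prl5ST-1. In NIL-Pbl6ST-1 it was at 18.2, 26 and 16 cpm, and with both segments at 37.9, 38.8 and 58.5 cpm. All 6 libraries with the segment lay above all 6 without it, with a log2 fold change of 1.48 (standard error 0.2, adjusted p = 0.00133). The change was 1.79 in the Koshihikari background (adjusted p = 0.00122 by edgeR) and 1.16 in the NIL-Pbl6ST-1 background, where it did not pass (adjusted p = 0.0598). The other transcripts of the locus, Os07t0160100-01 and Os07t0160100-03, which share reads with it, gave 1.61 and 1.47. Os07t0160100-02 was the 1 transcript called among 11 of the YABBY and KANADI list, beside 0.335% called higher of all transcripts. Of that list, the YABBY family transcript Os02t0643200-01 was at 56.9 to 88.1 cpm with the segment and 52.4 to 82.2 cpm without it (0.10, adjusted p = 0.624). In bulk tissue a change in the number of cells of a type and a change in RNA per cell cannot be told apart, here or in the results that follow.

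Of the MADS-box list, 4 transcripts outside the OsYAB1 locus were called, each higher with the segment. In the Koshihikari background alone all 4 passed (adjusted p 0.00384 to 0.0296 by edgeR). In the NIL-Pbl6ST-1 background alone none of the 4 passed (adjusted p 0.163 to 0.29), with log2 fold changes of 0.39 to 0.59. SPW1 (Os06t0712700-01), a class B gene of lodicules and stamens on chromosome 6, was at 48.4 to 76.9 cpm (median 56.7) with the segment and 35.0 to 44.8 cpm (median 39.9) without it. The groups did not overlap, and the log2 fold change was 0.57 (standard error 0.102, adjusted p = 0.0151). The PISTILLATA-like Os05t0423400-01, a gene of the same class that lies 5 tested transcripts after Prl5, was at 13.2, 11.1 and 17.7 cpm in Koshihikari and 27.5, 23.2 and 28.6 cpm in NIL-Prl5ST-1. In NIL-Pbl6ST-1 it was at 15.8, 15.4 and 12.9 cpm and with both segments at 22.6, 25.0 and 19.1 cpm, again without overlap of the 6 and the 6 (0.75, standard error 0.116, adjusted p = 0.00428). MADS7 (the MADS-box transcription factor 7-like Os08t0531700-01), a SEPALLATA-like gene, was at 58.0 to 81.4 cpm with the segment and 30.2 to 53.4 cpm without it (0.65, standard error 0.126, adjusted p = 0.0259). The MADS box protein Os09t0507200-01 was at 46.3 to 58.5 and 33.1 to 48.3 cpm, with an overlap (0.42, adjusted p = 0.0257).

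Of the 28 transcripts described with MADS, 5 were called and all 5 were higher, beside 0.335% called higher of all transcripts. Of the 5, 1 is the transcript Os07t0160100-03 of the OsYAB1 locus. Another, the PISTILLATA-like Os05t0423400-01, lies in the stretch around Prl5, where 14.1% of transcripts were called. The median log2 fold change of the 28 was 0.088, and 19 were above 0. SPW1 and the PISTILLATA-like transcript were called in each fit that left out a library. The call of Os08t0531700-01 was lost without Koshihikari replicate 1, NIL-Pbl6ST-1 replicate 3, NIL-Prl5ST-1 replicate 1 or 3, or replicate 2 of the line with both segments, and that of Os09t0507200-01 was lost in 6 of the 12 fits. Other floral genes of the list did not pass. The second PISTILLATA-like transcript, Os01t0883100-01, was at 41.4 to 48.1 cpm with the segment and 34.2 to 43.0 cpm without it (0.20, adjusted p = 0.259). MADS58 (Os05t0203800-01), a class C gene, was at 3.16 to 4.46 and 1.66 to 3.93 cpm (0.52, adjusted p = 0.254), and MADS1 (Os03t0215400-01) at 153 to 189 and 153 to 181 cpm (0.02, adjusted p = 0.954). The genes of branch and spikelet identity MADS14 (Os03t0752800-01) and MADS34 (Os03t0753100-01) had log2 fold changes of 0.05 and 0 (adjusted p = 0.812 and 0.987).

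**Figure D4:**
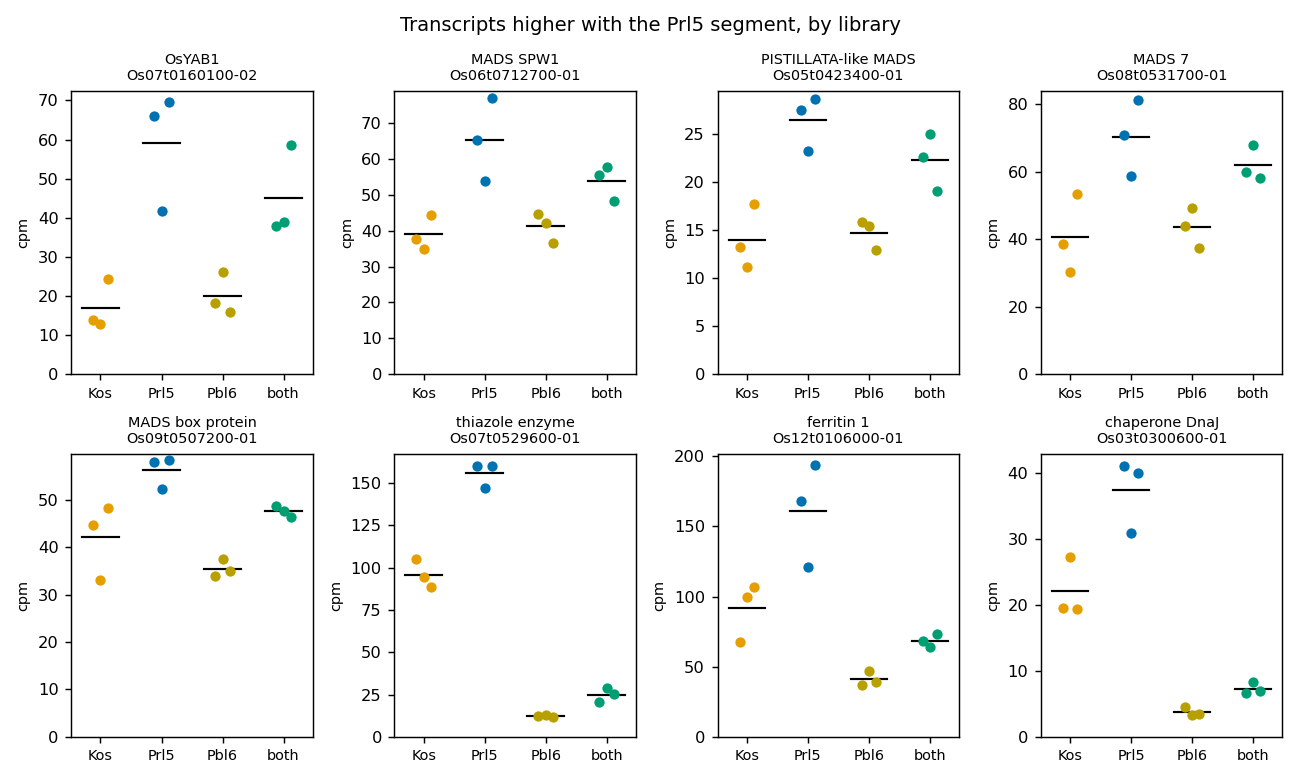
Normalised counts (cpm, y axis) of 8 transcripts called higher with the Prl5 segment in each library of Koshihikari (Kos), NIL-Prl5ST-1 (Prl5), NIL-Pbl6ST-1 (Pbl6) and NIL-Prl5ST-1+Pbl6ST-1 (both), with points for libraries and bars for the mean of 3. OsYAB1 (37.9 to 69.6 cpm against 12.8 to 26.0 cpm), SPW1, the PISTILLATA-like gene and MADS7 separate the 6 from the 6, while the thiazole enzyme, ferritin and DnaJ rise within each background from different starting levels.

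Several transcripts rose within each background although the backgrounds stood at different levels. A thiazole biosynthetic enzyme (Os07t0529600-01), which makes the thiazole part of thiamine, was at 105, 94.2 and 88.4 cpm in Koshihikari and 160, 147 and 160 cpm in NIL-Prl5ST-1. It was at 12.2, 12.7 and 11.6 cpm in NIL-Pbl6ST-1 and 20.6, 28.8 and 25.5 cpm with both segments (0.85, standard error 0.0905, adjusted p = 9.8e-05). Its level with the Pbl6 segment was far lower than without it, and the Prl5 segment came with a higher level in each case. The chaperone DnaJ-like Os03t0300600-01, a co-chaperone of HSP70, was at 19.5, 27.3 and 19.4 cpm in Koshihikari and 41.0, 30.9 and 40.0 cpm in NIL-Prl5ST-1. It was at 4.47, 3.29 and 3.46 cpm in NIL-Pbl6ST-1 and 6.6, 8.28 and 6.87 cpm with both (0.83, standard error 0.118, adjusted p = 0.002). Both were called in every fit that left out a library. Without the Pbl6 covariate, where the backgrounds' difference counts as spread, neither was called.

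Other regulators and enzymes rose outside chromosome 5 with no overlap of the groups. An ERF-domain transcription factor of chromosome 9 (Os09t0286600-01) was at 14.6 to 17.7 cpm with the segment and 9.65 to 13.3 cpm without it (0.53, adjusted p = 0.00751). Tfm5-like Os02t0662100-01 was at 81.9 to 104 and 53.4 to 81.2 cpm (0.53, adjusted p = 0.0117). The trehalose-6-phosphate phosphatase-like Os03t0386500-01, which removes the phosphate of the sugar signal trehalose-6-phosphate, was at 9.67 to 11 and 6.38 to 8.2 cpm (0.50, adjusted p = 0.00668). These 3 were called in every fit that left out a library. That was not so for an Hsp70 family transcript (Os06t0212900-01, 14.8 to 16.9 against 9.79 to 13.9 cpm, log2 fold change 0.43, adjusted p = 0.0263), lost in 8 of the 12 fits, or for the Myb-like Os12t0586300-00 (4.56 to 5.72 against 3.49 to 4.2 cpm, 0.47, adjusted p = 0.0333), lost in 10.

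Calls in the homeobox, cytokinin, aquaporin and cytochrome P450 lists included rises outside chromosome 5. The WUSCHEL-related homeobox 6-like Os03t0325600-01, of a family that maintains stem cells and organ growth, was at 0.572 to 1.04 cpm with the segment and 0.192 to 0.488 cpm without it (1.2, adjusted p = 0.0334), and its call was lost in 10 of the 12 fits. A transcript of the cytokinin list described as a signal transduction response regulator (Os09t0532400-01) was at 29.6 to 81.3 and 20.4 to 67.5 cpm (0.57, adjusted p = 0.0151). Its description names a receiver region domain and not cytokinin. Tonoplast intrinsic protein (Os03t0146100-01), a water channel of the vacuole, was at 167 to 352 and 131 to 262 cpm (0.45, adjusted p = 0.0494). The CYP78A1-like P450 Os08t0547300-01 was at 48.2 to 97.0 and 27.2 to 86.9 cpm (0.55, adjusted p = 0.0475). The ranges of these last 3 overlapped between the groups, and the calls of the water channel and the P450 were lost in 9 and 10 of the 12 fits. Ferritin, the iron store of plastids, was singled out after its values were seen. Os12t0106000-01 was at 64.2 to 194 cpm with the segment and 36.7 to 107 cpm without it (0.78, adjusted p = 0.00512), and Os11t0106700-01, which has the same description and may share reads with it, at 59.4 to 208 and 33.9 to 101 cpm (0.81, adjusted p = 0.00708).

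In the photosynthesis list 2 of 69 transcripts were called, both higher, while 56 had a log2 fold change above 0 and the median was 0.181. At an unadjusted P under 0.05, 19 were higher and 0 lower, beside 1793 and 1630 of all 31643 transcripts, of which 0.616% were called. Leaving out a library gave 0 to 2 calls. The oxygen-evolving enhancer protein 3-2-like Os07t0544800-01 was at 11.1 to 30.6 cpm with the segment and 8.26 to 17.1 cpm without it (0.60, adjusted p = 0.0319), and a photosystem I protein (Os07t0148900-01) at 4.61 to 8.61 and 2.69 to 6.23 cpm (0.66, adjusted p = 0.0469). The 24 leaf marker transcripts had the higher median sum in the same direction (105 and 76.9 cpm), and their part in these calls was not tested. Among 21 clock transcripts 2 were called, both of the FKF1-like blue-light receptor locus Os11g0547000 (Os11t0547000-01, 3.69 to 21.5 against 2.07 to 14.7 cpm, 0.60, adjusted p = 0.0351), and the median was 0.368. Unadjusted, 13 were higher and 3 lower, beside the same counts and the same 0.616% over all transcripts. Leaving out a library gave 0 to 4 clock calls. GIGANTEA (Os01t0182600-01), a clock output gene, ranged from 49.9 to 201 cpm with the segment and from 13.7 to 222 cpm without it (0.82, adjusted p = 0.189). A LHY-like transcript outside the list, Os04t0583900-01, picked after its values were seen, was lower (4.81 to 10.6 against 6.71 to 15.2 cpm, -0.48, adjusted p = 0.0365).

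Falls outside chromosome 5 were fewer. A transcript described as a TGF-beta receptor extracellular region family protein (Os01t0871500-01) was at 2.9 to 4.42 cpm with the segment and 5.07 to 8.61 cpm without it (-0.90, standard error 0.148, adjusted p = 0.00685), and was called in every fit that left out a library. An acyl-carrier-protein desaturase-like transcript (Os01t0880800-01), whose enzyme puts double bonds into plastid fatty acids, was at 2.46 to 4.23 and 5.7 to 15.9 cpm (-1.30, adjusted p = 0.0319), and was lost in 6 of the fits. A UDP-glucosyltransferase (Os04t0525100-01) was at 0.884 to 2.24 and 2.5 to 3.15 cpm (-0.91, adjusted p = 0.0422), and a nucleotide-binding domain protein (Os07t0516900-03) at 14.9 to 18.9 and 19.7 to 22.9 cpm (-0.36, adjusted p = 0.0351). Each of these 4 showed no overlap, and the last 2 calls were each lost in 9 of the 12 fits.

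Counts of the other lists stand beside 0.335% called higher and 0.281% called lower of all transcripts. Heat shock and chaperones had 6 higher and 1 lower of 285, where 3 of the 6 are transcripts of the DnaJ-like locus Os03g0300600 and the lower one is the heat shock cognate 70-like Os05t0460000-01 (-0.68, adjusted p = 0.00336). Of these heat shock and chaperone calls 3 lay on chromosome 5. Ethylene and AP2/ERF had 4 higher of 106 (3 of them transcripts of Os09g0286600 and 1 on chromosome 5). Homeobox had 3 higher of 139, from 2 loci. The cytokinin list had 2 higher of 75, both of the 1 locus Os09g0532400, whose description does not name cytokinin, so they are not read as cytokinin calls. Thiamine synthesis had 1 higher and 2 lower of 23, where the 2 lower are transcripts of 1 locus on chromosome 5, Os05g0408900. Of 42 jasmonate transcripts none was called by edgeR or limma-voom and 5 by DESeq2, with 17 lower and 1 higher at an unadjusted P under 0.05, 32 below 0 and a median of -0.155, beside 1630 lower and 1793 higher of all 31643 unadjusted. Of 29 expansins, wall-loosening proteins, none was called by any of the 3 tools (0, 0 and 0), with 4 lower and 1 higher at an unadjusted P under 0.05 and a median of -0.101. DNA replication had no call among 59 by the 3 tools (0, 0 and 0), with 5 lower and 1 higher unadjusted and a median of -0.11. The list of cell wall synthesis and remodelling had 1 higher of 174, a pectin lyase fold protein (Os05t0542900-01, 0.43, adjusted p = 0.0348). Core histones, cyclins, ribosomal proteins, RNA helicases, splicing, small RNA, polyamine, WRKY, NAC, receptor-like kinase, lipid transfer, nitrogen assimilation, transposon and F-box lists had 0 calls by edgeR and limma-voom and 0 to 5 by DESeq2, with 0 to 22 higher and 1 to 15 lower at an unadjusted P under 0.05.

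A group of 8 called transcripts outside chromosome 5 rested on Koshihikari alone. They were described as hypothetical or conserved genes and 1 Myb/SANT-like protein, had 16 to 312 counts in the Koshihikari libraries and 0 or 1 count in the 9 libraries of the NILs. Os04t0590366-00 had 71, 146 and 312 counts in Koshihikari replicates 1, 2 and 3, and Os01t0523800-00 had 66, 123 and 258. Replicate 2 held 1.56 to 2.45 times and replicate 3 held 3.56 to 5.08 times the count of replicate 1 in all 8. The adjusted p-values lay between 0.00329 (Os01t0523800-00) and 0.0154 (Os01t0523600-00), but both lines of the NIL-Pbl6ST-1 background were at the floor, so for these the additive model measured NIL-Prl5ST-1 against Koshihikari and no effect of the segment in the other background. Setting them aside left 79 calls elsewhere (60 higher and 19 lower), of which 79 had the same sign in both backgrounds. The additive model selects such transcripts, so this sign is no separate evidence. Over all transcripts tested on the other chromosomes 37.8% had the same sign.

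The effect in each background was read from 3 libraries against 3, which share no library with the other background. NIL-Prl5ST-1 against Koshihikari gave 3635 calls (11.5%), of which 406 lay on chromosome 5, and NIL-Prl5ST-1+Pbl6ST-1 against NIL-Pbl6ST-1 gave 104 (0.329%), of which 72 lay there. Called in both were 61 transcripts, 49 on chromosome 5 and 12 elsewhere, all 61 in the same direction and all 61 called in the comparison of 6 with 6. The interaction, which tests whether the effects in the 2 backgrounds differ, called 1243 transcripts (3.93%), of which 108 lay on chromosome 5 (8.69%), close to the share of chromosome 5 among those tested (8.29%). Of the 195 transcripts of the main effect, 178 were also called in the Koshihikari and 69 in the NIL-Pbl6ST-1 background, and 6 also by the interaction. Over the 2622 transcripts of chromosome 5 the 2 effects correlated at 0.715 (Pearson) and -0.0225 (Spearman), so that the first value rests on the few large changes. Over the 29021 of the other chromosomes they had -0.133 and -0.277. The transcripts share the same libraries and are not independent points.

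These numbers depended on single libraries more than the main effect did. The interaction gave 7579 calls without Koshihikari replicate 2 and 5233 without NIL-Prl5ST-1 replicate 2, the libraries that stood apart from their lines on PC1. It gave 7 to 523 without replicate 1 or 3 of Koshihikari, of NIL-Prl5ST-1 or of NIL-Prl5ST-1+Pbl6ST-1, or without any of the 3 of NIL-Pbl6ST-1. The effect in Koshihikari gave 8597 and 7022 calls without the same replicates 2, and 197 to 466 without any of the other 4 libraries of its comparison. The effect in NIL-Pbl6ST-1 gave 46 to 57 without any library of NIL-Pbl6ST-1 or replicate 3 of NIL-Prl5ST-1+Pbl6ST-1, and 167 without Koshihikari replicate 2, which enters through the shared spread. Fits of the 6 libraries of each background alone gave 235 and 246 calls. Over the same fits the main effect gave 130 to 216 calls, of which 80 to 101 lay on chromosome 5.

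**Figure D5:**
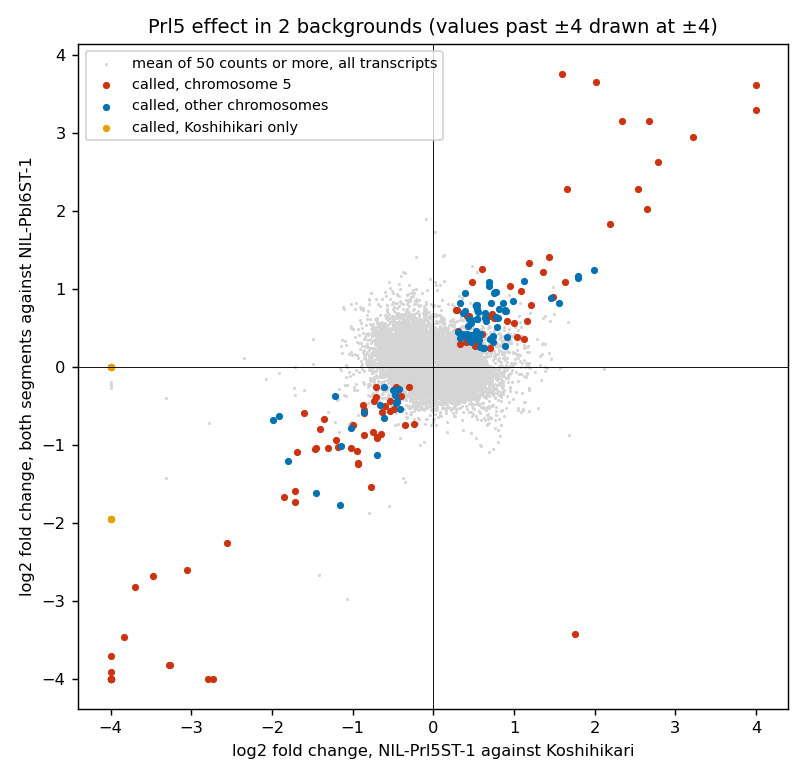
Log2 fold change for the Prl5 segment in the Koshihikari background (x axis) against that in the NIL-Pbl6ST-1 background (y axis), values past 4 in either direction drawn at 4, with grey points for all transcripts with a mean of at least 50 counts and coloured points for the 195 called in the comparison of 6 with 6. Called transcripts of chromosome 5 (red) and of the other chromosomes (blue) lie along the rising diagonal, as the additive model selects them, the grey points lie along a falling one, and the 8 found in Koshihikari alone (orange) lie at the left edge.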

How the data were processed

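The authors deposited raw read counts per Rice Annotation Project transcript, 40722 transcripts of 34126 loci in 12 libraries. The submitters' processing notes name Bowtie, bcl2fastq and IRGSP-1.0, without versions or settings. Whether strand was used and how multiply matching reads were counted is not given in the sources used here, so transcripts of a locus, paralogs and overlapping genes may share reads. Chromosome and order were read from the identifiers.

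Counts were normalised with edgeR 4.0.16 (TMM) in R 4.3.3, after low transcripts were removed by filterByExpr (default settings, 10 counts and 15 in total), which left 31643 transcripts of 25551 loci. The main test was glmQLFTest on Pbl6 + Prl5, two-sided, with Benjamini-Hochberg adjustment over all transcripts and a threshold of 0.05. Effects in each background and the interaction came from a fit of 4 line means to the 12 libraries. Exact permutation tests exchanged libraries within a background on log2(cpm + 0.5). The scripts were tested on simulated data. Alternatives used DESeq2 1.42.0 and limma 3.58.1, other filters and designs, a replicate block, and each library left out.

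Named transcripts were Prl5 and Pbl6, those with a mean of at least 50 counts in the higher group and no overlap (the 6 largest changes in each direction on chromosome 5, up to 10 elsewhere whose description names a protein, 1 per locus), and up to 4 called per gene list. Members of the gibberellin, panicle architecture, MADS-box, YABBY and clock lists and neighbours of Prl5 given beside them were chosen after their values were seen. The members and all 35 lists were chosen with earlier results of these data known, and no list was tested as a set.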

Additional observations from a re-analysis of the deposited data

Results flagged for a closer look

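The non-coding transcript Os05t0475550-00 had 0.548 cpm in NIL-Pbl6ST-1 replicate 2 and no count in the other 5 libraries without the Prl5 segment. Dixon's criterion flagged this library, but with no count in the other 5 it would flag any count, so it decides nothing here. NIL-Pbl6ST-1 replicate 2 was the only library without the segment in which this transcript was seen.

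For 6 transcripts of chromosome 5 that were called in the comparison of 6 with 6, the effect of the segment also differed between the backgrounds by edgeR's interaction test. The hypothetical protein Os05t0429100-01 fell more with the Pbl6 segment than without it, with an interaction of -0.55 on the log2 scale (adjusted p = 0.0481), and its second transcript Os05t0429100-02, which shares its reads, gave -0.55 too. The conserved hypothetical protein Os05t0414600-01 fell less with the Pbl6 segment (1.01, adjusted p = 0.0348). Os05t0389900-01, Os05t0390932-01 and Os05t0392900-01 had no count in NIL-Prl5ST-1 and low counts in at least 1 library with both segments. Their fitted interactions of 5.91, 8.39 and 6.09 depend on the prior count and are no bounds.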

How the results depend on the processing

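Of the counts for the main effect (195 in all, 106 higher, 89 lower, 108 on chromosome 5, 87 elsewhere, 55.4% on chromosome 5), none moved by over 1.5 times with DESeq2's size factors, limma-voom, no filter or counts summed to loci. DESeq2 gave 467 (272 higher, 195 lower, 165 on chromosome 5, 302 elsewhere, 35.3%) and 3644 for the interaction, and the average of both simple effects gave 440 (255, 185, 169, 271, 38.4%). Without the Pbl6 covariate there were 74 (27, 47, 62, 12, 83.8%), where the background's difference counts as spread. A tested change of at least 1.5-fold left 44 (11, 33, 33, 11), and at least 10 counts in every library, which drops transcripts at the floor, left 127 (52 lower, 63 on chromosome 5). Separate fits of 6 libraries gave 235 calls in Koshihikari and 246 in NIL-Pbl6ST-1. The cause of the other moves was not tested.

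Leaving out each library in turn gave 130 to 216 calls, 61 to 124 higher, 65 to 97 lower, 80 to 101 on chromosome 5, 47 to 119 elsewhere and 44.9% to 64.4% on chromosome 5. The interaction ranged from 7 to 7579, the effect in Koshihikari from 197 to 8597 and that in NIL-Pbl6ST-1 from 46 to 167. The log2 fold change of Pbl6 turned from -0.10 to 0.01 without Koshihikari replicate 1 (range -0.23 to 0.01 over the libraries left out), and no other named transcript changed sign.

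The replicate number as a block gave 141 calls, of which 135 were among the 195, with 65 higher, and 142 for the interaction. The replicate numbers showed no clear pairing of the libraries. Deviations of same-numbered libraries from their line means correlated at -0.521 to 0.606. Of these pairs 6 of 18 were over 0.1, beside 14 of 36 other pairs, and 2 of 12 libraries matched best with their own number. Deviations within a line of 3 libraries are tied to each other, so the check cannot decide whether libraries of different lines shared a batch.

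Depth limits the transcripts near 3 counts, where a difference below that level was not detectable.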
